A study of Mus musculus with 8 samples.

Results

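The genes described here are 10 members of the heat shock system of the mouse: the HSP70 genes *Hspa2*, *Hspa1l*, *Hspa4l*, *Hspa1a*, *Hspa1b* and *Hspa8*, the cytosolic HSP90 genes *Hsp90aa1* and *Hsp90ab1*, and the transcription factor genes *Hsf1* and *Hsf2*. They were taken by gene name on a standard chromosome from a table of 22603 genes, each name matched 1 row, and all 10 passed the filter on low values. The study compared pachytene spermatocytes from wildtype mice with those from mice whose *Setdb1* gene, which encodes an H3K9 methyltransferase, had been deleted in the male germ line (*Setdb1* cKO). Both groups were males of C57BL/6J background (C57BL/6 in the labels), with 2 RNA-seq samples each. Wildtype males were C57BL/6J at postnatal day 15, and cKO males were *Setdb1* flox/- with the *Ngn3-Cre* transgene, offspring of females that also carried a *ROSA26* EYFP reporter, at postnatal day 15 or later, with the age of each sample not given. *Ngn3-Cre* and the reporter were carried by the cKO males only, so the transgene, the reporter, the age and the deletion cannot be told apart. The methods give 500 cells for each genotype for RNA isolation and do not say whether each sample had its own 500. Cells were sorted by DNA staining, and a part of the RNA was amplified by the Smart-seq2 method. The labels do not say that the 2 samples of a group came from separate animals, so that every p-value measures only the spread between these samples.

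HSP70 proteins bind exposed hydrophobic stretches of unfolded proteins and release them in a cycle driven by ATP, with J-domain proteins starting the cycle and nucleotide exchange factors ending it. HSP90 proteins act later, on partly folded clients such as kinases and receptors, with help from co-chaperones. The inducible genes of both families are transcribed on heat or other proteotoxic stress when HSF1 binds heat shock elements in their promoters, while male germ cells carry forms of their own: HSPA2 is made at high levels in spermatocytes and is needed in the mouse for meiosis to be completed, HSPA1L is mainly a spermatid protein, and HSPA4L is a testis-rich relative from the HSP110 branch of the family. HSF2 is expressed in developing germ cells and binds the same elements as HSF1.

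The members lie on 6 chromosomes of build GRCm38. The inducible genes *Hspa1b* (chr17:34956436-34959238, minus strand) and *Hspa1a* (chr17:34969190-34972156, minus strand) each have a single exon and are separated by 9951 bases. The germ-cell gene *Hspa1l* (chr17:34972703-34979285, plus strand) starts 546 bases beyond the start of *Hspa1a* and is transcribed away from it. *Hspa2*, with a single exon in its longest coding transcript, lies elsewhere (chr12:76404176-76406938, plus strand), as do *Hspa8* (chr9:40800984-40810087, plus strand) and *Hspa4l* (chr3:40744495-40796103, plus strand). *Hsp90aa1* (chr12:110690605-110702728, minus strand) and *Hsp90ab1* (chr17:45567775-45573271, minus strand) each have 11 exons in their longest coding transcript. *Hsf1* is on chromosome 15 (chr15:76477422-76501913, plus strand) and *Hsf2* on chromosome 10 (chr10:57486385-57513135, plus strand).

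*Hspa1a*, *Hspa1b* and *Hspa1l*, the HSP70 genes of the chromosome 17 cluster, share stretches as long as a read, which limits how far 75-base reads can tell them apart. The stretch below, 75 coding bases near the start of each reading frame, is shown because 3 of the members share it in full. It is read on the coding strand from the GENCODE transcripts of GRCm38, from coding base 34 in *Hspa1a*, *Hspa1b* and *Hspa8*, 37 in *Hspa2* and 40 in *Hspa1l*, and capitals mark bases that differ from *Hspa1a*.
Hspa1a: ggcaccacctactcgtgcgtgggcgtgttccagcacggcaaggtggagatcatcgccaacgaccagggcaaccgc
Hspa1b: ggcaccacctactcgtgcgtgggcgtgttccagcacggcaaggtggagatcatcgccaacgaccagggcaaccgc
Hspa1l: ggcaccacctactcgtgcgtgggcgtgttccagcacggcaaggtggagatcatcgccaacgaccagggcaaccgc
Hspa2: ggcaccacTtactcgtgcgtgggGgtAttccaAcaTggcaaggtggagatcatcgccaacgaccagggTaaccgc
Hspa8: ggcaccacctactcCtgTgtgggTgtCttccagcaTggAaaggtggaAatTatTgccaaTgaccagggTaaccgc

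*Hspa2* differed from *Hspa1a* at 6 of these bases and *Hspa8* at 11. Over the whole coding sequence, *Hspa1a* and *Hspa1b* were identical at 99.6% of aligned bases, *Hspa1a* and *Hspa1l* at 83.6%, and *Hspa1a* and *Hspa2* at 79.9%. *Hspa2* and the constitutive *Hspa8* were identical at 76.1%, *Hsp90aa1* and *Hsp90ab1* at 76.6%, and *Hsf1* and *Hsf2* at 61.6%. All 75-base windows of each member's transcripts were then searched in the transcripts of every other gene, on either strand. None of the windows of *Hspa2* or *Hsf1* occurred in another gene, and at most 0.537% of those of *Hspa4l*, *Hsf2* and *Hsp90ab1* did. The share was 61.7% for *Hspa1a* and 55.8% for *Hspa1b*, mostly with each other. *Hspa1l* shared 71.1% of its windows with *Gm10501*, an annotated antisense transcript, and 7.09% with *Hspa1a*. *Gm20481*, annotated as protein-coding, held 14.6% of the windows of *Hspa1a* and 7.55% of those of *Hspa1b*. The levels of *Gm10501* and *Gm20481* were not analysed here. Overlap with processed pseudogenes was seen for *Hsp90aa1* (42.8%, mainly *Gm12346*) and *Hspa8* (33.0%, with 10 pseudogenes among its 14 partners). The pseudogene *Gm15459* held 30.2% of the windows of *Hspa8* and the lincRNA *Gm26825*, whose level was not analysed here, 29.7%.

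**Figure D1:**
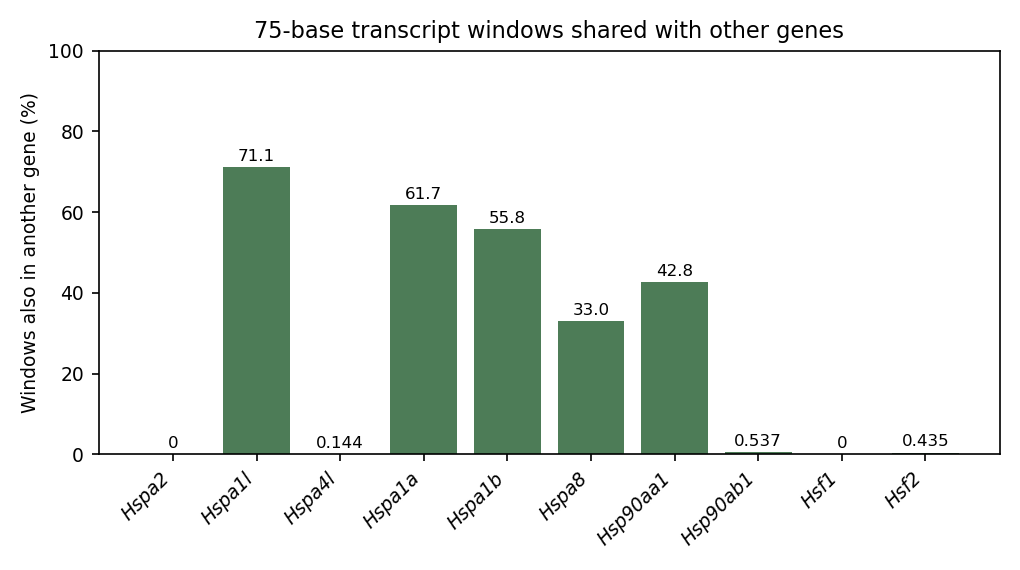
Percent of the 75-base windows of each gene's annotated transcripts (y axis) that also occur in a transcript of another gene, on either strand, for the 10 genes (x axis). Bars stand at 0 for *Hspa2* and *Hsf1* and reach 55.8% to 71.1% for the 3 genes of the chromosome 17 cluster.

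Values in the table are TPM, a transcript abundance scaled to library size, a level per transcript length that can be compared between genes of a sample. The pseudogene partners held in the table were low: *Gm12346* was at 2.46 to 5.42 TPM and *Gm15459* at 5.02 to 7.86 TPM, far below their parents. The reads of a nearly identical pair were divided by the authors' quantification, so that the levels of *Hspa1a*, *Hspa1b* and *Hspa1l* are uncertain one by one. The libraries were made from unstranded cDNA, and reads of *Hspa1l* and *Gm10501* cannot be told apart by strand.

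In the promoter windows searched, letters of a heat shock element, the element that HSF1 and HSF2 bind, were found for the inducible HSP70 genes. RefSeq promoter sequences (250 bases before to 50 after the start, GRCm38.p6, with RefSeq starts that need not equal the GENCODE starts above) were matched by symbol for 6 of 10 members: *Hspa2*, *Hspa1l*, *Hspa4l*, *Hspa1a*, *Hspa1b* and *Hsf2*. *Hspa8*, *Hsp90aa1*, *Hsp90ab1* and *Hsf1* were not among them. A heat shock element was searched as GAANNTTC or TTCNNGAA, letters that are the same motif shifted in phase and read the same on both strands, and 15.1% of 32851 promoters held at least 1. The promoters of *Hspa1a* and *Hspa1b* each held 1, 104 bases before the start, and were identical to each other at 296 of 300 bases. The windows of *Hspa2*, *Hspa1l*, *Hspa4l* and *Hsf2* held none. The inducible and the germ-cell promoter of the most abundant form are shown for this contrast, with the heat shock element in capitals.
Hspa1a promoter (chr17:34972107-34972406, minus strand): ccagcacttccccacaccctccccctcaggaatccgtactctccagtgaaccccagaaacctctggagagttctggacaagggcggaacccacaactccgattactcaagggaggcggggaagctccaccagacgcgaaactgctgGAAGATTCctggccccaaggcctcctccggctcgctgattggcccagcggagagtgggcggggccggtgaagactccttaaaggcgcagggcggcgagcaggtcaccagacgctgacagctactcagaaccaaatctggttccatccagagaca
Hspa2 promoter (chr12:76404120-76404419, plus strand): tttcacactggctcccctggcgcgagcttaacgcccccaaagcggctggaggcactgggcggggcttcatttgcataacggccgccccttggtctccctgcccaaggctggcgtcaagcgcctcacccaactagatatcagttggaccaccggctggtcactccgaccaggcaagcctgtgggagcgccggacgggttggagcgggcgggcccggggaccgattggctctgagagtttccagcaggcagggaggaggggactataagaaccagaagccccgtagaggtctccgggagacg

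A CCAAT box, searched as CCAAT or ATTGG on both strands, was found in 37.4% of promoters and in those of *Hspa2*, *Hspa1l*, *Hspa1a*, *Hspa1b* and *Hsf2*, and not in that of *Hspa4l*. The cAMP response element TGACGTCA, present in 1.79% of promoters, was in none of the 6. Such matches describe the letters of these windows only.

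The samples were not equally alike. Across genes, log2(TPM + 1) values of cKO replicate 1 correlated with those of the wildtype samples at r = 0.875 and 0.887, against 0.940 and 0.948 for cKO replicate 2 and 0.970 between the wildtype samples. Of 28 round and elongating spermatid markers, 27 had a log2 difference above 0 and 9 were called higher in the cKO, and their summed level was 576 and 612 TPM in wildtype, 3086 in cKO replicate 1 and 988 in cKO replicate 2. One of them, *Odf2*, made up 530 and 556 TPM of the wildtype sums and 636 and 820 TPM of the cKO sums, and without it the sums were 46.4 and 56.4 TPM in wildtype, 2450 TPM in cKO replicate 1 and 168 TPM in the other cKO sample. The summed level of 20 pachytene markers was 7625 and 9007 TPM in wildtype cells, against 5247 and 7065 TPM in cKO cells. Of the 20, 3 were called higher and 4 lower. *Ldhc* alone made up 2524 and 3001 TPM of the wildtype sums. In the cKO it made up 1902 TPM of the sum in replicate 1 and 3077 TPM in replicate 2, its highest level of the 4 samples. The called markers with the smallest p were *Pgk2* and *Ccna1*, higher by 2.13 and 2.80 on the log2 scale (limma adjusted p = 0.0315 for each), and *Piwil2* and *Tesmin*, lower at -1.87 and -2.18 (limma adjusted p = 0.0505 for each). *Tesmin* fell from 762 and 946 TPM in wildtype cells to 154 and 228 TPM in cKO cells. The spermatid nuclear protein genes *Prm1* and *Tnp1* were at 0.704 and 2.81 TPM and at 0 and 1.82 TPM in wildtype, at 63.6 and 79.6 TPM in cKO replicate 1, and at 5.18 TPM and listed at 0 in cKO replicate 2. *Sycp3*, which encodes a lateral element protein of the synaptonemal complex and defines spermatocytes, was present in every sample, at 769 and 928 TPM in wildtype cells, against 656 and 623 TPM in cKO cells. Spermatogonial markers summed to 267 and 349 TPM in wildtype cells, against 581 and 366 TPM in cKO cells. Leydig markers summed to 118 and 282 TPM against 850 and 153 TPM, macrophage and erythroid markers to 64.8 and 114 against 291 and 81.3 TPM, Sertoli markers to 1800 to 2206 TPM and myoid and endothelial markers to 31.7 to 47.8 TPM over all samples. *Setdb1* itself was at 56.9 and 59.3 TPM in wildtype cells, against 28.7 and 37.2 TPM in cKO cells, a difference of -0.81 on the log2 scale (limma adjusted p = 0.269) summed over the whole gene and not its deleted exons alone. In bulk RNA, fewer cells of a type and less RNA per cell cannot be told apart. The part of these cell mixtures in the values that follow was not tested. Results are therefore given by sample, and without cKO replicate 1 where they rest on it.

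In wildtype pachytene cells *Hsp90aa1* and *Hspa2* were among the most abundant messages. *Hsp90aa1* ranked 14 and *Hspa2* ranked 47 by mean wildtype TPM among 19462 protein-coding genes. The order of the levels was *Hsp90aa1*, *Hspa2*, *Hspa8*, *Hsp90ab1*, *Hspa4l*, *Hsf1*, *Hspa1a*, *Hsf2*, *Hspa1l* and *Hspa1b*, and each neighbour was separated from the next in both wildtype samples. In the cKO *Hspa8* stood above *Hspa2* in both samples. *Hspa2* was below *Hsp90ab1* in cKO replicate 1 and above it in cKO replicate 2. *Hspa1a* was above *Hsf2* and *Hspa1l* above *Hspa1b* within each cKO sample, although the ranges of each pair over the cKO samples overlapped. The summed level of the 10 genes was 7487 and 8436 TPM in wildtype cells, against 5511 and 5814 TPM in cKO cells, and *Hsp90aa1* alone made up 57.3% and 57.8% of that sum in wildtype and 43.2% and 50.8% in the cKO.

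**Figure D2:**
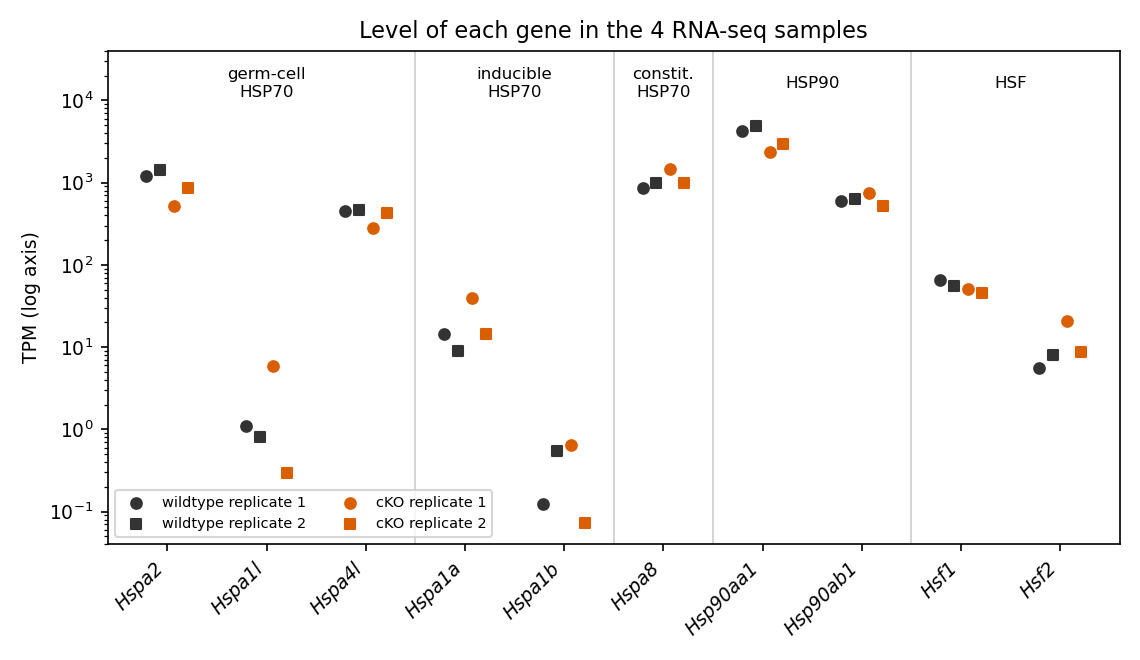
Level of each of the 10 genes in TPM (y axis, log axis) in the 4 samples, with the genes grouped by role along the x axis; black points are wildtype, orange points cKO, circles replicate 1 and squares replicate 2. *Hspa2*, *Hspa4l*, *Hsp90aa1* and *Hsf1* lie lower in both orange points than in both black ones, and *Hsf2* lies higher.

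The genotype difference of each gene was estimated with limma on log2(TPM + 1), with Benjamini-Hochberg adjustment over 19462 protein-coding genes and a threshold of 0.2 on the adjusted p. Of the 10 members 0 passed, against 4.6% of all genes tested. At an unadjusted p under 0.05 there was 1 member, *Hspa2*, lower in the cKO, where 4.39% of all genes were lower and 9.19% higher. The samples of the genotypes did not overlap for 4 members that were lower in the cKO, where 18.1% of all genes were, and for 1 that was higher, where 26.3% were. The median log2 difference of the 10 was 0.03, beside 0.08 over all genes. Without cKO replicate 2, 5 members passed (*Hspa1l*, *Hspa1a* and *Hsf2* higher, *Hspa2* and *Hspa4l* lower), in a fit that assumes the lone cKO sample to vary like the wildtype ones and that called 19.8% of all genes. Without cKO replicate 1, no member passed and 3.45% of all genes did.

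Among the germ-cell forms, *Hspa2* was high and *Hspa1l* was at or under 5.85 TPM. *Hspa2*, whose protein in mouse spermatocytes is found on the synaptonemal complex and assists assembly of the CDK1 and cyclin B1 kinase, was at 1216 and 1406 TPM in wildtype cells, against 518 and 870 TPM in cKO cells. Both cKO samples were below both wildtype samples, and the cKO samples were farther apart than the wildtype ones. The difference was -0.96 ± 0.35 (SE; 95% interval -1.80 to -0.12) on the log2(TPM + 1) scale, a wildtype mean 1.89 times the cKO mean, with an unadjusted limma p of 0.0305 and an adjusted p of 0.313. Relative to the wildtype mean, replicate 1 of the cKO was at -1.33 and replicate 2 at -0.59 on the log2 scale, the latter being the estimate without replicate 1.

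*Hspa4l*, encoding an HSP110-type chaperone that acts as a nucleotide exchange factor for HSP70, was at 447 and 461 TPM in wildtype cells, against 277 and 423 TPM in cKO cells. The cKO samples were lower without overlap, with replicate 2 at -0.10 relative to the wildtype mean on the log2 scale. The estimate was -0.41 ± 0.29 (SE; 95% interval -1.10 to 0.29; limma adjusted p = 0.620), and it was -0.10 without cKO replicate 1.

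*Hspa1l* was at 1.09 and 0.815 TPM in wildtype, 5.85 TPM in the first cKO sample and 0.293 TPM in cKO replicate 2. The cKO samples thus lay on either side of the wildtype ones, and replicate 1 also had the highest summed spermatid, spermatogonial, Leydig, and macrophage and erythroid markers, whose part in the value was not tested. The estimate was 0.61 ± 0.76 (SE; 95% interval -1.19 to 2.41; limma adjusted p = 0.811), and it was -0.59 without cKO replicate 1.

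The inducible HSP70 genes were low in all 4 samples beside *Hspa2*, *Hspa4l* and *Hspa8*. *Hspa1a* was nonetheless above the germ-cell form *Hspa1l* in each sample. *Hspa1a*, the stress-induced gene with the heat shock element printed above, was at 14.5 and 8.86 TPM in wildtype cells, against 39.5 and 14.4 TPM in cKO cells. Replicate 1 of the cKO was above every other sample, and replicate 2 lay between the wildtype values. The estimate was 1.01 ± 0.53 (SE; 95% interval -0.26 to 2.28; limma adjusted p = 0.476), and it was 0.31 without cKO replicate 1.

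*Hspa1b*, its nearly identical neighbour, was at 0.122 and 0.544 TPM in wildtype cells, against 0.638 and 0.0732 TPM in cKO cells. The genotypes overlapped and the estimate was 0.01 (limma adjusted p = 0.993). The 3 genes of the cluster were added up because their reads can be divided among them. The sum came to 15.7 and 10.2 TPM in wildtype cells, against 46.0 and 14.7 TPM in cKO cells. Replicate 1 of the cKO was thus again the only sample outside the wildtype range. *Gm10501* and *Gm20481*, which share windows with these genes, are not part of the sum.

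*Hspa8*, which encodes the constitutive cytosolic HSP70 of most cells, was at 859 and 997 TPM in wildtype cells, against 1475 and 977 TPM in cKO cells. Replicate 2 of the cKO was inside the wildtype range. The estimate was 0.37 ± 0.34 (SE; 95% interval -0.43 to 1.18; limma adjusted p = 0.713), and it was 0.078 without cKO replicate 1.

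**Figure D3:**
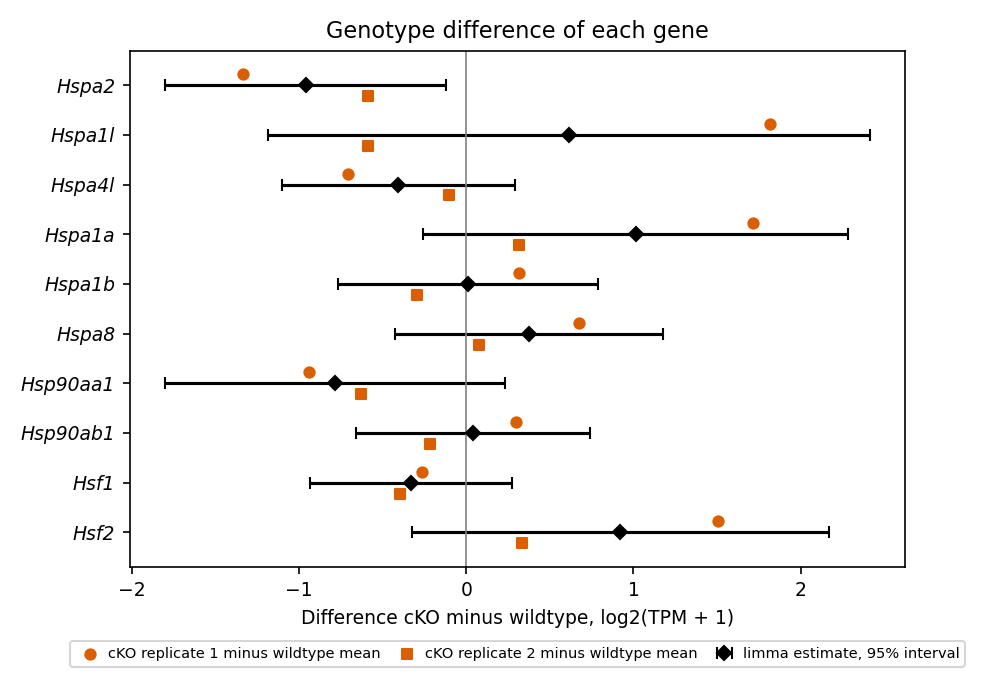
Difference between genotypes for each of the 10 genes on the log2(TPM + 1) scale (x axis). Diamonds with bars are limma estimates with 95% intervals, and orange points are each cKO sample minus the wildtype mean; of the 10 intervals, that of *Hspa2* (-1.80 to -0.12) does not reach 0, and for *Hspa1l*, *Hspa1b* and *Hsp90ab1* the cKO samples fall on opposite sides of 0.

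The germ-cell forms made up a smaller part of the summed level of the 6 HSP70 members in both cKO samples than in either wildtype sample. The 9 other HSP70 and HSP110 genes were not counted in this sum. The sum of the 6 genes was 2537 and 2874 TPM in wildtype cells, against 2316 and 2284 TPM in cKO cells. Germ-cell forms were 65.6% and 65.0% of it in wildtype (mean 65.3% ± 0.42, SD, n = 2) and 34.6% and 56.6% in the cKO (45.6% ± 15.6, SD, n = 2), a difference of -19.7 percentage points. It was -8.68 points without cKO replicate 1 and -30.7 points without cKO replicate 2. With all samples and *Hspa4l* left out it was -22.0 points, and with *Hspa1a* and *Hspa1b* left out, -19.5 points. *Hspa2* was at 1.42 and 1.41 times the level of *Hspa8* in wildtype and at 0.351 and 0.890 times in the cKO. The inducible forms were 0.577% and 0.327% of the sum in wildtype and 1.73% and 0.632% in the cKO. No test was made of these shares, since the genes were grouped with results of these data known.

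**Figure D4:**
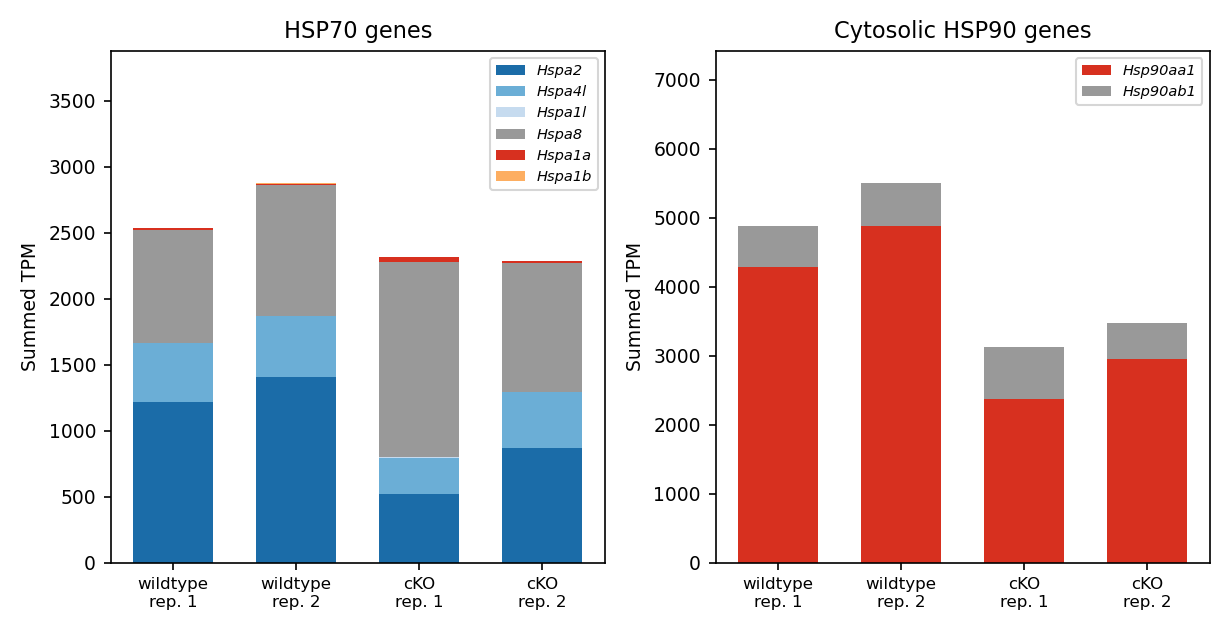
Summed TPM (y axis) of the 6 HSP70 genes, left, and of the 2 cytosolic HSP90 genes, right, stacked by gene in each of the 4 samples (x axis). In the left panel the blue *Hspa2* and *Hspa4l* segments together are 65.5% and 64.9% of the bar in wildtype and 34.3% and 56.6% in the cKO, and the *Hspa1l* and *Hspa1b* segments are too thin to read.

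In the HSP90 family the inducible form was the abundant one. *Hsp90aa1*, encoding the heat-inducible HSP90 alpha that is also made constitutively in testis, was at 4289 and 4876 TPM in wildtype cells, against 2380 and 2954 TPM in cKO cells. Both cKO samples were below both wildtype samples. The estimate was -0.79 ± 0.43 (SE; 95% interval -1.80 to 0.23; limma adjusted p = 0.493), each cKO sample being below the wildtype mean, replicate 1 at -0.94 and replicate 2 at -0.63.

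*Hsp90ab1*, which encodes the constitutive HSP90 beta, was at 589 and 622 TPM in wildtype cells, against 744 and 522 TPM in cKO cells. The cKO values fell on either side of the wildtype pair, and the estimate was 0.04 ± 0.29 (SE; 95% interval -0.66 to 0.74; limma adjusted p = 0.972), with its sign turning negative under trimmed-mean scaling and without cKO replicate 1. *Hsp90aa1* exceeded *Hsp90ab1* by factors of 7.28 and 7.83 in wildtype and 3.20 and 5.66 in the cKO. Its share of the pair was 87.9% and 88.7% in wildtype and 76.2% and 85.0% in the cKO, without overlap, a difference of -7.71 points that became -3.31 points when cKO replicate 1 was left out and -12.1 points when replicate 2 was.

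The estimates for the HSF genes were of opposite sign, and neither passed the threshold. *Hsf1*, the main activator of the heat shock response, was at 66.0 and 55.8 TPM in wildtype cells, against 50.4 and 45.8 TPM in cKO cells. The genotypes did not overlap, and the estimate was -0.33 ± 0.25 (SE; 95% interval -0.93 to 0.27; limma adjusted p = 0.648).

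*Hsf2*, an HSF gene of developing germ cells, was at 5.49 and 7.92 TPM in wildtype cells, against 20.6 and 8.59 TPM in cKO cells. Both cKO samples were higher, replicate 2 by a margin smaller than the gap between the wildtype samples. The estimate was 0.92 ± 0.52 (SE; 95% interval -0.33 to 2.17; limma adjusted p = 0.514), and it was 0.33 without cKO replicate 1. The ratio of *Hsf2* to *Hsf1* was 0.0832 and 0.142 in wildtype and 0.409 and 0.187 in the cKO, a difference of 0.186 that became 0.0747 when cKO replicate 1 was left out and 0.297 when replicate 2 was.

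Genes with profiles most like 3 of the members were sought among 1751 genes with a mean of at least 100 TPM, by the Euclidean distance between log2(TPM + 1) values centred on each gene's mean over the 4 samples. Nearest to *Hspa2* were *Cks2*, a subunit of cyclin-dependent kinases (distance 0.066), *Adprh*, an ADP-ribosylarginine hydrolase (0.071), and *Nup205*, a nuclear pore component (0.074). *Cks2* was at 704 and 831 TPM in wildtype cells, against 310 and 490 TPM in cKO cells. Nearest to *Hsp90aa1* were *Uqcrc2*, a subunit of respiratory complex III (0.030), *Dtymk*, thymidylate kinase (0.079), and *1700020N01Rik* (0.086). *Hspa1l* had no close neighbour among these 1751 genes. The nearest was *Hist1h2ap*, a histone H2A gene, at 0.73, then the nuclear receptor gene *Nr4a1* at 0.88 and the histone chaperone gene *Rbbp7* at 0.94. *Hspa1l* itself was at or under 5.85 TPM, and genes at that level were not searched. With 4 samples many genes share a profile, and these distances carry no test.

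Of the other chaperone genes, 124 in 8 lists were tested. Among them 4 were called higher and 3 lower in the cKO, 5.65% beside 4.6% of all genes, with a median log2 difference of 0.01. At an unadjusted limma p under 0.05, counted below for lists where none passed, 4.39% of all genes were lower and 9.19% higher. Without cKO replicate 1 the counts were again 4 and 3, with 5 of the 7 genes shared. Without cKO replicate 2 they were 19 and 9, and without either wildtype sample no gene of the whole table was called.

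None of the 9 other HSP70 and HSP110 genes, the 2 other HSP90 genes or the 5 genes of the other HSF list passed. In these lists 2, 1 and 0 genes were at an unadjusted limma p under 0.05. The last list includes *Hsbp1*, which is not itself an HSF gene. The gene of the endoplasmic reticulum HSP70, *Hspa5*, was at 489 and 675 TPM in wildtype cells, against 1355 and 1076 TPM in cKO cells, without overlap (log2 difference 1.07, limma adjusted p = 0.222). *Trap1*, the mitochondrial HSP90, was at 131 and 148 TPM in wildtype cells, against 70.4 and 99.1 TPM in cKO cells (log2 difference -0.73). *Hsbp1*, for a small protein that binds HSF1, was at 408 and 494 TPM in wildtype cells, against 585 and 768 TPM in cKO cells (0.58). *Hsf5*, a testis-expressed member of the HSF family, was at 38.2 and 43.6 TPM in wildtype cells, against 18.9 and 36.5 TPM in cKO cells.

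Of 45 J-domain co-chaperone genes, which start the HSP70 cycle, 2 were higher and 0 lower, beside 4.6% of all genes called in either direction. *Dnajb14*, for a J-domain protein of the endoplasmic reticulum membrane, rose from 31.0 and 39.8 TPM in wildtype cells to 103 and 114 TPM in cKO cells (log2 difference 1.60, limma adjusted p = 0.0696). *Dnajc12* rose from 8.55 and 12.2 TPM to 37.7 and 24.2 TPM (1.48, limma adjusted p = 0.177), and did not pass without cKO replicate 1, where the difference was 1.17. Of 13 nucleotide exchange and adaptor genes none passed, with 2 at an unadjusted limma p under 0.05. *Bag5*, for a BAG-domain partner of HSP70, had the smallest p of them, at 97.1 and 66.9 TPM in wildtype cells, against 151 and 144 TPM in cKO cells (0.87, limma adjusted p = 0.243).

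Of 30 HSP90 co-chaperone genes, 3 were lower and 0 higher, beside 4.6% of all genes called in either direction. *Nudc*, of the NudC family that binds HSP90, fell from 600 and 671 TPM to 303 and 261 TPM (log2 difference -1.17, limma adjusted p = 0.132). *Ppid*, encoding cyclophilin 40, fell from 190 and 208 TPM to 92.7 and 97.9 TPM (-1.05, limma adjusted p = 0.132). *Rpap3*, the adaptor between HSP90 and the R2TP complex, fell from 41.7 and 44.6 TPM to 9.50 and 17.8 TPM (-1.65, limma adjusted p = 0.138). These 3 genes had adjusted p of 0.191, 0.197 and 0.188 in limma without cKO replicate 1, all still under 0.2.

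Beside 4.6% of all genes called in either direction, 2 of 10 small heat shock protein genes were higher and 0 lower. One of them, *Odf1*, encodes a sperm tail protein and is also among the spermatid markers above; its level rose from 0.0699 and 0.0598 TPM in wildtype cells to 52.3 and 5.30 TPM in cKO cells (limma adjusted p = 0.147). The other, *Hspb7*, went from 1.43 and 1.70 TPM to 6.93 and 9.32 TPM (log2 difference 1.82, limma adjusted p = 0.177), and without cKO replicate 1 the difference was 2.01 with a limma adjusted p of 0.216. None of 10 chaperonin genes passed, with 1 at an unadjusted limma p under 0.05, and 6 of the 10 were lower in the cKO without overlap, where 18.1% of all genes were. *Cct8*, a subunit of the cytosolic chaperonin, was at 638 and 731 TPM in wildtype cells, against 401 and 390 TPM in cKO cells (-0.79, limma adjusted p = 0.260).

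**Figure D5:**
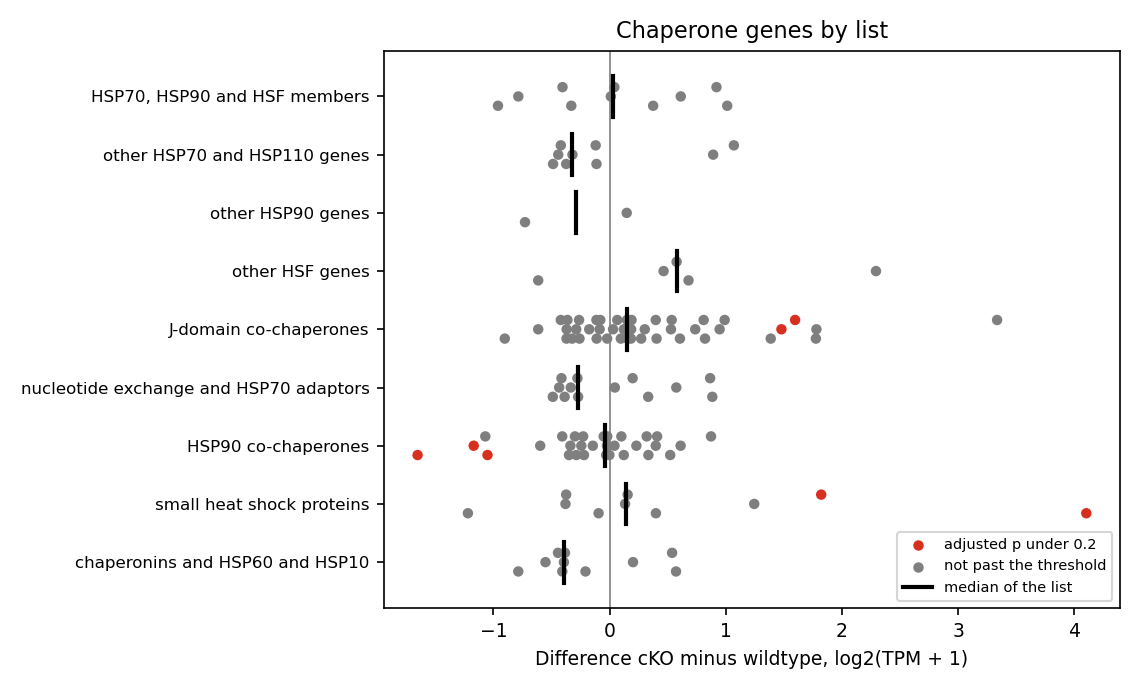
Difference between genotypes on the log2(TPM + 1) scale (x axis) of the 10 members and of the genes of 8 other chaperone lists (y axis, points spread vertically for legibility). Each point is a gene, red where the limma adjusted p was under 0.2, and black bars are list medians; 3 red points lie below 0, all HSP90 co-chaperones, and 4 above 0.

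Of 21 genes known to rise on heat shock, 1 was called higher and 0 lower, 4.76% beside 4.6% of all genes, with a median log2 difference of 0.13. It was *Atf3*, a stress-induced transcription factor gene, at 56.99 and 38.5 TPM in wildtype cells, against 98.3 and 96.3 TPM in cKO cells (1.04, limma adjusted p = 0.190), and without cKO replicate 1 the difference was 1.02 with a limma adjusted p of 0.279. Of 24 genes of protein folding in the endoplasmic reticulum none passed, with 3 at an unadjusted limma p under 0.05 and a median of 0.14. Of 15 genes for partners and clients of HSPA2, 1 was higher and 2 were lower, 20% beside 4.6% of all genes. Both lower genes are also among the pachytene markers above. *Ccnb1*, encoding the cyclin B1 of the kinase that HSPA2 helps to assemble, rose from 46.3 and 58.4 TPM in wildtype cells to 196 and 173 TPM in cKO cells (1.80, limma adjusted p = 0.0515), opposite to the sign of *Hspa2*. The synaptonemal complex genes *Sycp2* (299 and 322 TPM to 147 and 173 TPM) and *Tex12* (168 and 181 TPM to 99.4 and 75.5 TPM) fell (limma adjusted p = 0.166 and 0.167), and without cKO replicate 1 *Sycp2* was at -0.84 with an adjusted p of 0.243.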

How the data were processed

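A part of the total RNA of 500 sorted cells, the number given for each genotype, was amplified by Smart-seq2. It was made into libraries and sequenced as single 75-base reads. The authors quantified transcripts with kallisto (version 0.44.0; GRCm38 index; fragment length 200, SD 20) and summed them per gene with sleuth (version 0.30.0). The deposited values are this TPM, a length-scaled signal without read counts, so depth is unknown and no counting interval is given. Totals of the 4 columns ranged from 942186 to 1109730 TPM, and *Gm10800* alone took 13.5% of wildtype replicate 1 and 3.15% to 5.97% of the others. The authors' own comparison columns (p, q and effect size) were not used, and the 4 ChIP and input samples were not analysed here.

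The fit covered every protein-coding gene whose mean exceeded 0.1 TPM for wildtype or cKO. It used limma (version 3.58.1, R 4.3.3; trended eBayes, two-sided) on log2(TPM + 1), the pseudocount of 1 understating changes of low genes, with Benjamini-Hochberg adjustment and the threshold of 0.2 that the study used. The step was run on simulated data with equal spread in both genotypes and changes only in genes above about 10 TPM. In the data the median log2 gap between samples was 0.44 in the cKO and 0.26 in wildtype for genes at 10 TPM or more. The simulation therefore does not cover unequal spread or low genes. Members and lists were chosen with earlier results of these data known. All 10 members were named. From each chaperone, target and partner list the genes past the threshold with the 2 smallest p in each direction were named or, where none passed, the gene with the smallest p, with *Hspa5*, *Hsf5*, *Setdb1*, the markers *Sycp3* and *Prm1*, and the 3 nearest profiles of *Hspa2*, *Hspa1l* and *Hsp90aa1* added. *Rpap3*, *Gm12346*, *Gm15459*, *Gm10501*, *Gm20481* and *Gm26825* were named in addition, after their values were seen. So were the markers *Tnp1*, *Odf2*, *Ldhc*, *Pgk2*, *Ccna1*, *Piwil2* and *Tesmin*. Alternatives were other pseudocounts, filters, scalings and variance models, a replicate block, and each sample left out.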

Additional observations from a re-analysis of the deposited data

How the results depend on the processing

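Over 14 alternatives, the count of members past the threshold was 0 except without cKO replicate 2; with a sample left out it ranged from 0 to 5. The 5 that passed then had log2 differences of 1.82 (*Hspa1l*), 1.71 (*Hspa1a*), 1.51 (*Hsf2*), -1.33 (*Hspa2*) and -0.71 (*Hspa4l*), with limma adjusted p of 0.102, 0.104, 0.137, 0.109 and 0.193. Over all alternatives *Hspa2* ranged from -1.33 to -0.59 (limma adjusted p 0.109 to 0.925), *Hsp90aa1* from -0.94 to -0.63 (0.289 to 0.925) and *Hsf2* from 0.33 to 1.51 (0.137 to 0.940). The sign changed for *Hsp90ab1* under TMM scaling (-0.057) and without cKO replicate 1 (-0.21), for *Hspa1l* without cKO replicate 1 (-0.59), and for *Hspa1b* under TMM scaling (-0.026), a pseudocount of 0.1 (-0.082), quantile normalization (-0.16), without cKO replicate 1 (-0.29) and without wildtype replicate 1 (-0.22). With a sample left out, *Hsp90ab1* ranged from -0.21 to 0.296, *Hspa1b* from -0.29 to 0.316 and *Hspa1l* from -0.59 to 1.82. *Hspa1b* was removed by the filter at 1 TPM. Rescaled to autosomal genes, 3 members in place of 1 were higher without overlap and 3 in place of 4 lower. The cause of these changes was not tested. That rescaling gave a median over all genes of 0.18 and 960 genes higher and 103 lower, quantile normalization a median of -0.11 with 430 and 177, and eBayes without trend 392 and 56; without either wildtype sample 0 genes passed. With the replicate number as a block 0 members passed and 7.24% of all genes did. Deviations of same-numbered samples from their group means correlated at r = 0.03 across genes. That correlation compares the gap between the wildtype samples with the gap between the cKO samples, and cannot decide whether the numbers pair the samples. With 2 samples a group, the width of the printed intervals sets what could be seen.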
